A study of Mus musculus with 51 samples.

Results

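Peaks of acetylated histone H3 lysine 27 (H3K27ac) and monomethylated lysine 4 (H3K4me1) were examined at 10 mouse Kruppel-like factor genes, Klf3, Klf5, Klf6, Klf7, Klf9, Klf10, Klf11, Klf12, Klf13 and Klf15, of 22359 coding genes annotated in mm9. A peak belonged to a gene if it overlapped the gene body or the 20 kb on either side of it. The windows of the 10 genes summed to 934 kb and held 89, 70 and 74 H3K27ac peaks and 131, 148 and 188 H3K4me1 peaks in the successive stages. The cells were grown from embryonic stem cells of C57/BL-6 mice and carried no transgene or knockdown. The stages were ES-derived neural progenitor cells (aNPC), expanded with EGF and FGF-2, and the early astrocytes (eA) and late astrocytes (lA) obtained after 1 and 5 days in medium with 1% FBS and LIF. Each mark was profiled by ChIP-seq in 2 samples per stage. The authors pooled the reads of both samples before calling peaks, so that each mark and stage has 1 list and no difference between stages has a replicate error or a test.

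Kruppel-like factors are transcription factors that bind GC-rich and CACCC-containing DNA through a conserved set of zinc fingers. Their N-terminal parts differ and recruit different partners. Klf5, Klf6 and Klf7 act mainly as activators, Klf3 and Klf12 repress through CtBP proteins, and Klf9, Klf10, Klf11 and Klf13 can repress through Sin3 proteins. Klf9 and Klf15 are known glucocorticoid-induced genes. H3K27ac marks active promoters and enhancers, and H3K4me1 marks enhancers both before and during activity, so the pair can show where a gene's surroundings held candidate elements at each stage.

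Leaving out 4 or 5 mitochondrial peaks per list, the H3K27ac lists held 79413, 83433 and 92700 peaks in aNPC, eA and lA and covered 45.4, 44.3 and 50.1 Mb. The H3K4me1 lists held 154238, 185478 and 208333 peaks and covered 91.5, 111.4 and 118.2 Mb. The number of reads behind each list is unknown here. The labelled cell types were checked by the share of marker genes with an H3K27ac peak at the promoter. Of 8 astrocyte markers, 5, 5 and 6 had one in aNPC, eA and lA, with Gja1 from eA on, Aqp4 in lA alone and S100b in aNPC alone. Of 6 neural progenitor markers, 5 had one at every stage. None of 3 pluripotency and 3 microglial markers had one at any stage, and of 4 neuronal markers Tubb3 alone did.

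Covered length describes how much of a window lay under peaks. The 10 genes were covered by H3K27ac peaks over a median of 7.00%, 5.61% and 6.36% of the window at the successive stages. The medians over all coding genes were 2.47%, 2.80% and 2.70%. The median coding gene was exceeded by all 10 genes in aNPC, by 8 in eA and by 9 in lA. For H3K4me1, the median member was covered over 10.0%, 10.6% and 12.6% of its window, against 5.11%, 6.13% and 6.36% for coding genes. The H3K4me1 lists grew in length, which bears on this rise and on that of single members. The members' total H3K4me1 cover was 1.08 times from aNPC to eA and 1.14 times from eA to lA. With each H3K4me1 list cut to the length of that of aNPC, these ratios were 0.987 and 1.04. For H3K4me1, Klf15 and Klf13 were covered most in aNPC (18.6% and 17.2% of the window) and eA (19.7% and 19.3%), and in lA Klf13 (17.1%) was followed by Klf11 (15.3%) and Klf15 (15.1%). Klf12, whose window of 319 kb is the longest, had the lowest share of H3K27ac in eA and lA.

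**Figure D1:**
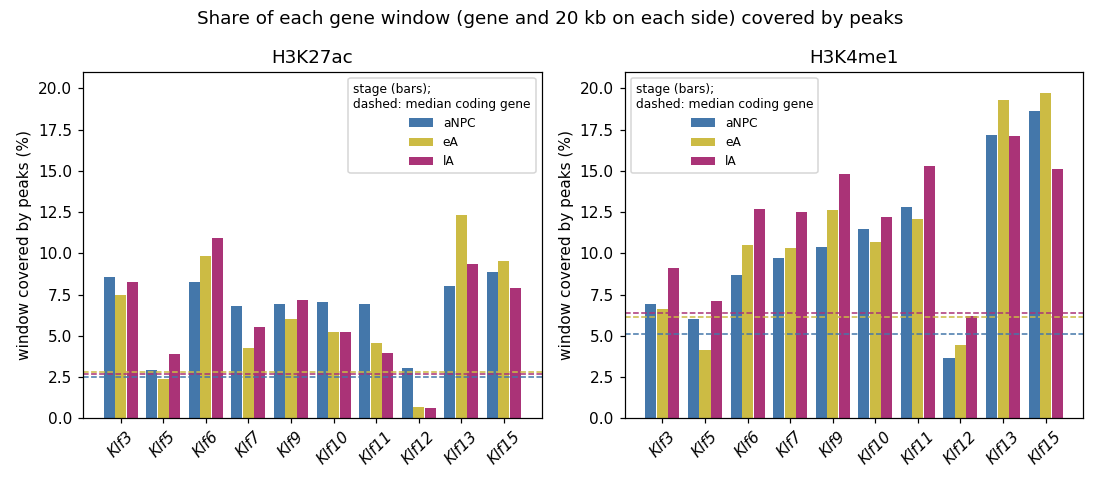
Percent of each gene window covered by H3K27ac peaks (left) and H3K4me1 peaks (right) in aNPC, eA and lA, with dashed lines at the median coding gene of each stage. Klf13 stands highest for H3K27ac in eA (12.3%), and Klf12 lies below the dashed lines in eA (0.699%) and lA (0.625%).

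Most members kept H3K27ac at the promoter throughout. The promoter covered the 1 kb before and the first 100 bp after any coding transcript start. An H3K27ac peak overlapped it in 9, 9 and 8 members at the successive stages, and the shares of all coding genes with one were 50.6%, 53.2% and 48.2%. In 8 members the peak was there at every stage, as it was in 45.2% of coding genes. H3K4me1 was at the promoter of 9, 7 and 7 members, against 55.4%, 53.6% and 52.7% of coding genes, and at every stage in 7 members, against 46.7%. Klf12 had no promoter peak of either mark at any stage. Within each H3K27ac list, the highest promoter peak by the authors' −log10 q was that of Klf7, which lay at or above 99.6%, 99.4% and 98.6% of all peaks in turn.

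Klf3, Klf6 and Klf13 had wide promoter peaks when summed over all coding starts of the gene. H3K27ac at the Klf3 promoters spanned 4408 bp in aNPC and 4441 bp in eA. Both sums were at or above 99.8% of the genes with such a peak. The aNPC sum joined a peak of 2584 bp at the first start and one of 1824 bp at an internal start. In lA the sum was 1697 bp, at or above 88.7%, from the internal start alone. The lA peaks by the first start began 335 bp after it, past the promoter limit, and were not counted. Klf6 had 2626, 2601 and 2564 bp and Klf13 had 2930, 2964 and 2523 bp in aNPC, eA and lA. Both were at or above 97.4% of genes at every stage. Klf6 has 1 coding start. The Klf13 sums pool peaks at 2 coding starts, with regions at the internal one centred 13.1 and 14.1 kb after the first. The aNPC and eA sums of Klf3, and all those of Klf13, are therefore not widths of 1 domain. The median gene had 1161, 1249 and 1057 bp. At Klf7, the promoter peaks spanned 1140, 2803 and 1118 bp. The larger eA value came from 1 peak of 2283 bp that covered a stretch where aNPC and lA each had separate peaks.

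**Figure D2:**
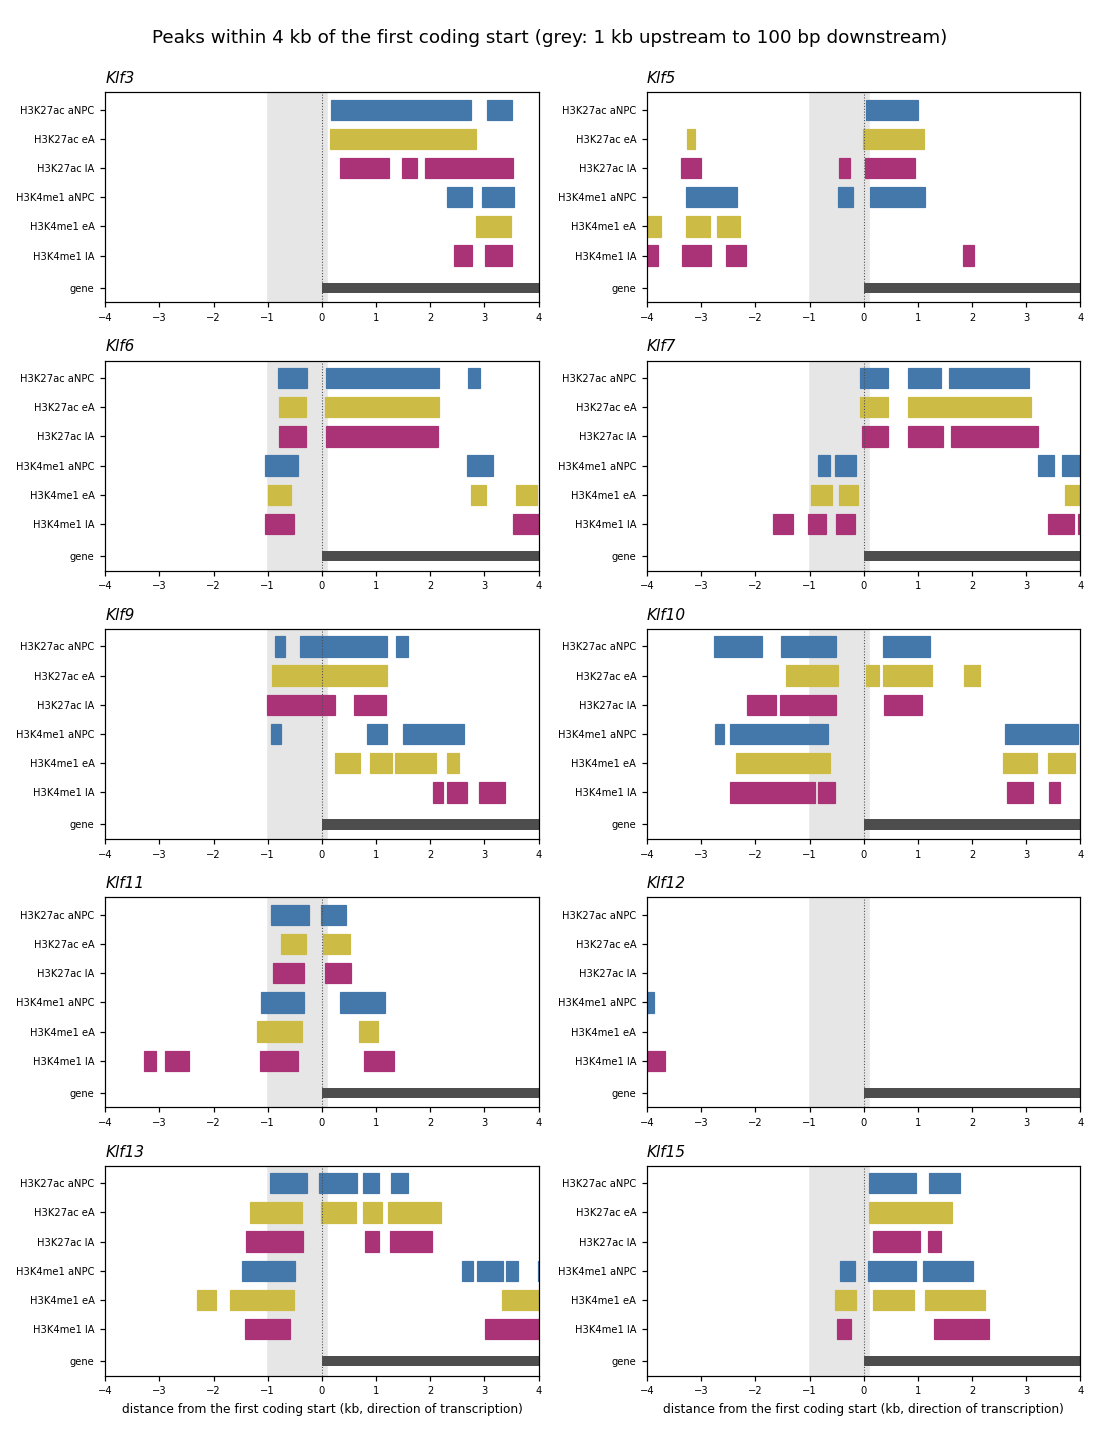
Peaks of the 6 lists (rows) within 4 kb of the first coding start of each gene, by distance in the direction of transcription, with the promoter window in grey. No peak of either mark reaches the grey window of Klf12, whose panel holds H3K4me1 peaks with summits at -3.95 kb in aNPC and -3.75 kb in lA.

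The repressor genes Klf3 and Klf12 had different courses. Klf3 (ENSMUSG00000029178.7, chr5:65194628-65221368, plus strand) had 5, 3 and 6 H3K27ac peaks in aNPC, eA and lA, which covered 5.70, 4.99 and 5.50 kb. A first domain began 166 bp after the first coding start in aNPC and 143 bp after it in eA, at or above 96.0% and 91.7% of those lists. In lA the same stretch held peaks of 897, 289 and 1624 bp, the nearest of which began 335 bp after the start. The lA promoter call of Klf3 therefore rested on a peak of 1697 bp at an internal coding start, with its summit 8.35 kb after the first start, where a peak was found at every stage. Of the 5 merged H3K27ac regions of Klf3, 3 were present at all stages.

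Klf12 (ENSMUSG00000072294.3, chr14:100269869-100549015, minus strand) had 20, 5 and 6 H3K27ac peaks. They covered 9.66, 2.23 and 2.00 kb, a difference of 4.33 times between aNPC and eA, and of 2.63 times with 50 kb on each side. The aNPC value stood apart, and eA and lA were near each other. Of the 20 aNPC peaks, 15 overlapped no H3K27ac peak of eA or lA, and 18 lay in introns. These stage-restricted peaks were of low rank, and the highest of them, at 29.0 kb, had a −log10 q of 10.5, at or above 52.4% of the aNPC list. The other 5 were a weak peak at 81.0 kb (−log10 q 3.54), which overlapped one of lA, and an intronic cluster 205 to 217 kb after the start. The cluster had −log10 q of 178, 152, 149 and 55.1 in aNPC, the first 3 at or above 96.6% of the list, and its peaks near 205 to 207 kb were still present in eA and lA. There the cluster was narrower, with its highest peak at or above 69.1% of the peaks in eA and 57.3% in lA.

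H3K4me1 did not follow the same course at Klf12. It had 27, 30 and 46 peaks covering 11.7, 14.2 and 19.7 kb in aNPC, eA and lA. The number of peaks depended on the length of the lists. With each H3K4me1 list held to the number of peaks in the aNPC list, taking the highest −log10 q, the counts were 27, 22 and 27 and the covered lengths 11.7, 12.1 and 14.5 kb. The same restriction left H3K27ac at Klf12 with 20, 5 and 5 peaks. Of its 20 distal H3K27ac peaks of aNPC, 16 were absent in eA (80.0%, against 50.9% of the list), and 6 of the 16 had an H3K4me1 peak in eA (37.5%, against 67.6%). Because Klf12 was singled out after its values were seen, these shares do not set it apart from the list.

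The annotation bears on the empty Klf12 promoter. GENCODE M1 gives Klf12 a length of 279 kb and 1 coding start, and RefSeq (GRCm38.p6) gives 420 kb, although the 300-base RefSeq promoter of Klf12 matched mm9 at that same start. Beyond the window, a broad H3K27ac peak lay 133 to 135 kb upstream of the start at chr14:100681629-100684208 in aNPC. It was 2580 bp wide and its −log10 q of 160 was at or above 97.1% of the list. In eA the stretch held peaks of 1498, 520 and 188 bp, and in lA peaks of 380 and 1572 bp, the highest at or above 87.5% and 93.0% of their lists. H3K4me1 peaks flanked or overlapped it at every stage. The aNPC peak had a GC content of 49.6%, a CpG observed over expected ratio of 0.570 and 4 matches to the GC box (GGGCGG, on either strand). Whether it is a start of Klf12 was not tested.

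**Figure D3:**
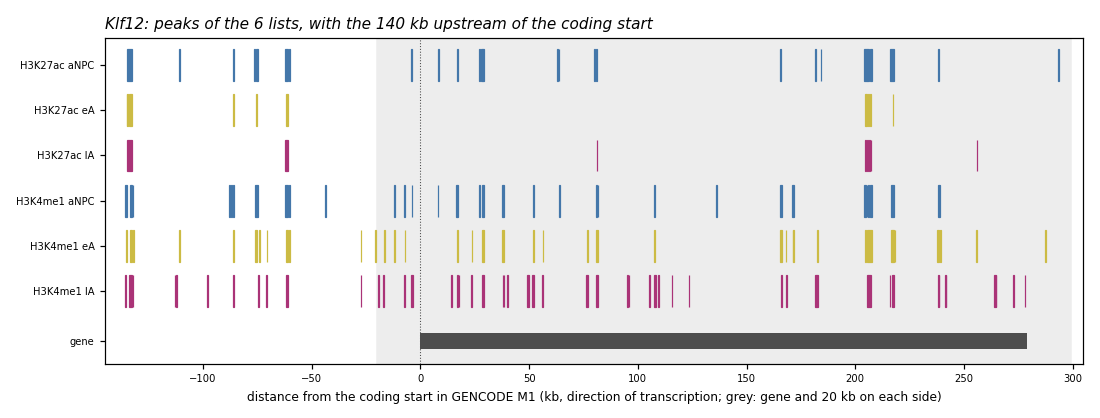
Peaks of the 6 lists (rows) along Klf12 and the 140 kb before its coding start, by distance in the direction of transcription, with the gene body as a dark bar and the analysed window in grey. In the analysed window, 15 of 20 aNPC H3K27ac peaks have no counterpart in eA or lA, while the cluster at 205 to 207 kb and the upstream region at 133 to 135 kb are present at every stage.

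The sequence around 2 Klf12 summits is shown to contrast the persistent cluster with a site acetylated in aNPC alone. Each run is the 200 bases centred on the aNPC summit on the plus strand of mm9, at chr14:100342823-100343022 and chr14:100519929-100520128, both intronic. Capitals here and in the sequences that follow mark matches on either strand to 9 motifs. The AP-1 motif, bound by Fos and Jun proteins and by Atf3, was written as TGANTCA. The half-site of nuclear factor I proteins, called NF1 half-site here, was taken to be TTGGCA. The RUNX motif of the runt-domain factors was given the letters TGTGGT. The longer motifs were STAT (TTCCNGGAA), the cyclic AMP response element or CRE (TGACGTCA) and the glucocorticoid receptor motif (ACANNNTGT). The motifs of Kruppel-like and Sp factors were the CACCC-like motif (CCNCNCCC) and the GC box given above for the Klf12 upstream peak. The CArG box completed the list. Neither run held a match, which says no more than that these letters are not in these windows.
Klf12 206 kb: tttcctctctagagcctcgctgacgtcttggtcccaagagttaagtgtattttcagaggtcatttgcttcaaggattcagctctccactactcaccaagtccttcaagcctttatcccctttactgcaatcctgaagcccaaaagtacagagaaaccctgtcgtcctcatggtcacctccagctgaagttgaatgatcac
Klf12 29.0 kb: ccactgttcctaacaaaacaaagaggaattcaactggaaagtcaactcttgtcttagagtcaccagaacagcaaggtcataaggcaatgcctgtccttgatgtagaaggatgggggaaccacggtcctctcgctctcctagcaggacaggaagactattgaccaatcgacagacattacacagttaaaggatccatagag

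Among the activators, Klf5 had the fewest peaks. Klf5 (ENSMUSG00000005148.7, chr14:99697910-99712624, plus strand) had 2, 2 and 5 H3K27ac peaks covering 1.59, 1.29 and 2.13 kb in aNPC, eA and lA. The lA length was 1.65 times that of eA. H3K4me1 covered 3.29, 2.27 and 3.87 kb, and lA was 1.70 times eA. Both lA ratios came to under 1.2 in the narrower window with 10 kb on each side, 1.17 for H3K27ac and 1.16 for H3K4me1. The promoter peak of H3K27ac was present at every stage, at or above 75.7%, 86.5% and 75.9% of the lists, whereas H3K4me1 was found at the promoter (−log10 q 9.61) and just after the start (14.4) in aNPC alone. A site 3.21 kb upstream had H3K27ac in eA and lA and none in aNPC, while H3K4me1 was already there in aNPC.

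Klf6 (ENSMUSG00000000078.6, chr13:5860735-5869639, plus strand), an activator induced in many cells by injury or growth signals, had 6, 5 and 7 H3K27ac peaks covering 4.04, 4.82 and 5.32 kb. Its promoter domain was nearly the same at each stage, with a peak of 533, 498 and 498 bp before the start and one of 2093, 2103 and 2066 bp after it. Of this pair the upstream peak overlapped H3K4me1 at every stage, and no H3K4me1 peak overlapped the downstream H3K27ac domain at any stage. A region centred 8.41 kb after the start, over the last exon, had H3K27ac in eA and lA with H3K4me1 in aNPC and eA. It is not printed because it lies on an exon.

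Klf7 (ENSMUSG00000025959.6, chr1:64076021-64168856, minus strand), which is expressed in neurons during axon growth, had 18, 13 and 12 H3K27ac peaks covering 9.06, 5.64 and 7.36 kb. The aNPC length was 1.61 times that of eA, and lA lay between the other two. With 10 kb or 50 kb on each side instead of 20 kb, the ratio was 1.34 or 1.33. Its 21 merged H3K27ac regions comprised 8 in aNPC alone, 6 at all stages, 2 in eA alone, 1 in lA alone, 2 in eA and lA, 1 in aNPC and eA and 1 in aNPC and lA. The aNPC-only regions had −log10 q between 2.81 and 21.3, and 3 of them lay between 101 and 104 kb after the start, downstream of the gene. Both regions shared by eA and lA, centred at 33.6 and 61.4 kb, were intronic and had H3K4me1 at every stage. The H3K27ac peak at 61.4 kb was weak in eA, at or above 3.27% of the list, and was at or above 46.7% in lA.

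The sequences of these gained sites are given because each had H3K4me1 before H3K27ac. The windows are centred on eA summits at chr14:99694598-99694797 for Klf5, outside any coding gene, and chr1:64107091-64107290 and chr1:64134745-64134944 for Klf7, in introns, all on the plus strand of mm9, and are named by the distance of the summit. The Klf5 site matched RUNX and the glucocorticoid receptor motif, the first Klf7 site matched the glucocorticoid receptor motif, and the second matched the NF1 half-site and, at 2 places, the CACCC-like motif. In the whole eA list, 14.3% of distal windows held the RUNX motif, 6.56% the glucocorticoid receptor motif, 12.6% the NF1 half-site and 17.0% the CACCC-like motif.
Klf5 -3.21 kb: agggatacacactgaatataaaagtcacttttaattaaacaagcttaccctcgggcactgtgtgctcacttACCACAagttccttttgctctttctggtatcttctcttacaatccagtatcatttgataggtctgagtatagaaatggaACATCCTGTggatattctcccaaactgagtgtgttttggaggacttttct
Klf7 61.7 kb: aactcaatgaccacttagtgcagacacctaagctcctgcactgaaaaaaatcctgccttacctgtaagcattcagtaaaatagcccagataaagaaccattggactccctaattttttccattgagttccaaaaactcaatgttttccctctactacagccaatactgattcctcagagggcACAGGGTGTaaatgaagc
Klf7 34.0 kb: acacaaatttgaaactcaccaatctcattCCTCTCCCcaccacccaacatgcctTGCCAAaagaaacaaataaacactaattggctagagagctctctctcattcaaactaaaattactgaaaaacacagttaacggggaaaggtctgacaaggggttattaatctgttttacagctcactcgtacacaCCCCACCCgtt

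Of the genes that repress through Sin3 proteins, Klf9 had an H3K27ac promoter peak at every stage, and 3 of its 6 distal regions differed between stages. Klf9 (ENSMUSG00000033863.1, chr19:23215716-23241401, plus strand) had 6, 5 and 7 H3K27ac peaks covering 4.55, 3.95 and 4.72 kb, and H3K4me1 over 6.80, 8.25 and 9.69 kb. H3K27ac spanned the start at every stage, with peaks of 1606, 2127 and 1254 bp. H3K4me1 overlapped the promoter in aNPC alone, in a peak of 177 bp. In eA the nearest H3K4me1 peak began 241 bp after the start, and in lA 2045 bp after it. Klf5 and Klf9 shared this pattern, of H3K27ac at the promoter throughout and H3K4me1 there in aNPC alone, which 1.79% of coding genes had. The call at Klf9 rested on a short peak of low rank, at or above 31.2% of the list, and with the promoter widened to 1 kb on either side Klf9 also had H3K4me1 there in eA.

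An intronic site 8.63 kb after the Klf9 start had both marks at every stage. Its highest H3K27ac peak was at or above 81.3%, 65.2% and 48.3% of the aNPC, eA and lA lists. A region 27.6 kb after the start, past the gene's end, had H3K27ac at or above 58.6%, 68.0% and 82.1% of the lists. By contrast, a site 5.30 kb upstream had H3K27ac in eA alone (−log10 q 4.60, at or above 19% of the list) within H3K4me1 peaks found at every stage, which in eA reached 35.7, at or above 96.5%. A site 21.9 kb after the start had H3K27ac in lA alone (−log10 q 5.58) and H3K4me1 in eA and lA. In aNPC an H3K4me1 peak at chr19:23236620-23237375 ended just before it.

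The windows around both Klf9 summits are printed as the examples of an eA-only and an lA-only site. They lie at chr19:23210311-23210510, outside coding genes, and chr19:23237554-23237753, in an intron, on the plus strand of mm9. The upstream site had a GC content of 58.0% and a match each to the GC box and the CACCC-like motif. The intronic site had no match. In the whole eA list, 2949 of 66983 distal windows held the GC box and 17.0% the CACCC-like motif. Among the members' distal eA windows, 3 of 51 held the GC box and 12 of 51 the CACCC-like motif. Whether a Kruppel-like factor binds the upstream site was not tested.
Klf9 -5.30 kb: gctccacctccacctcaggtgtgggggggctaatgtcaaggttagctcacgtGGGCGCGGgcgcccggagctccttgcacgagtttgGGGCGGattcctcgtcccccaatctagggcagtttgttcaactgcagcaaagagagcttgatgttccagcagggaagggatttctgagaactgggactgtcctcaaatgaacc
Klf9 21.9 kb: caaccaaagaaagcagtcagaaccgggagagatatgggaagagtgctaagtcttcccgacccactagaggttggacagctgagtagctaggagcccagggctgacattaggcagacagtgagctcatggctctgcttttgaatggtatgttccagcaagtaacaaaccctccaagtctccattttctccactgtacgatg

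**Figure D4:**
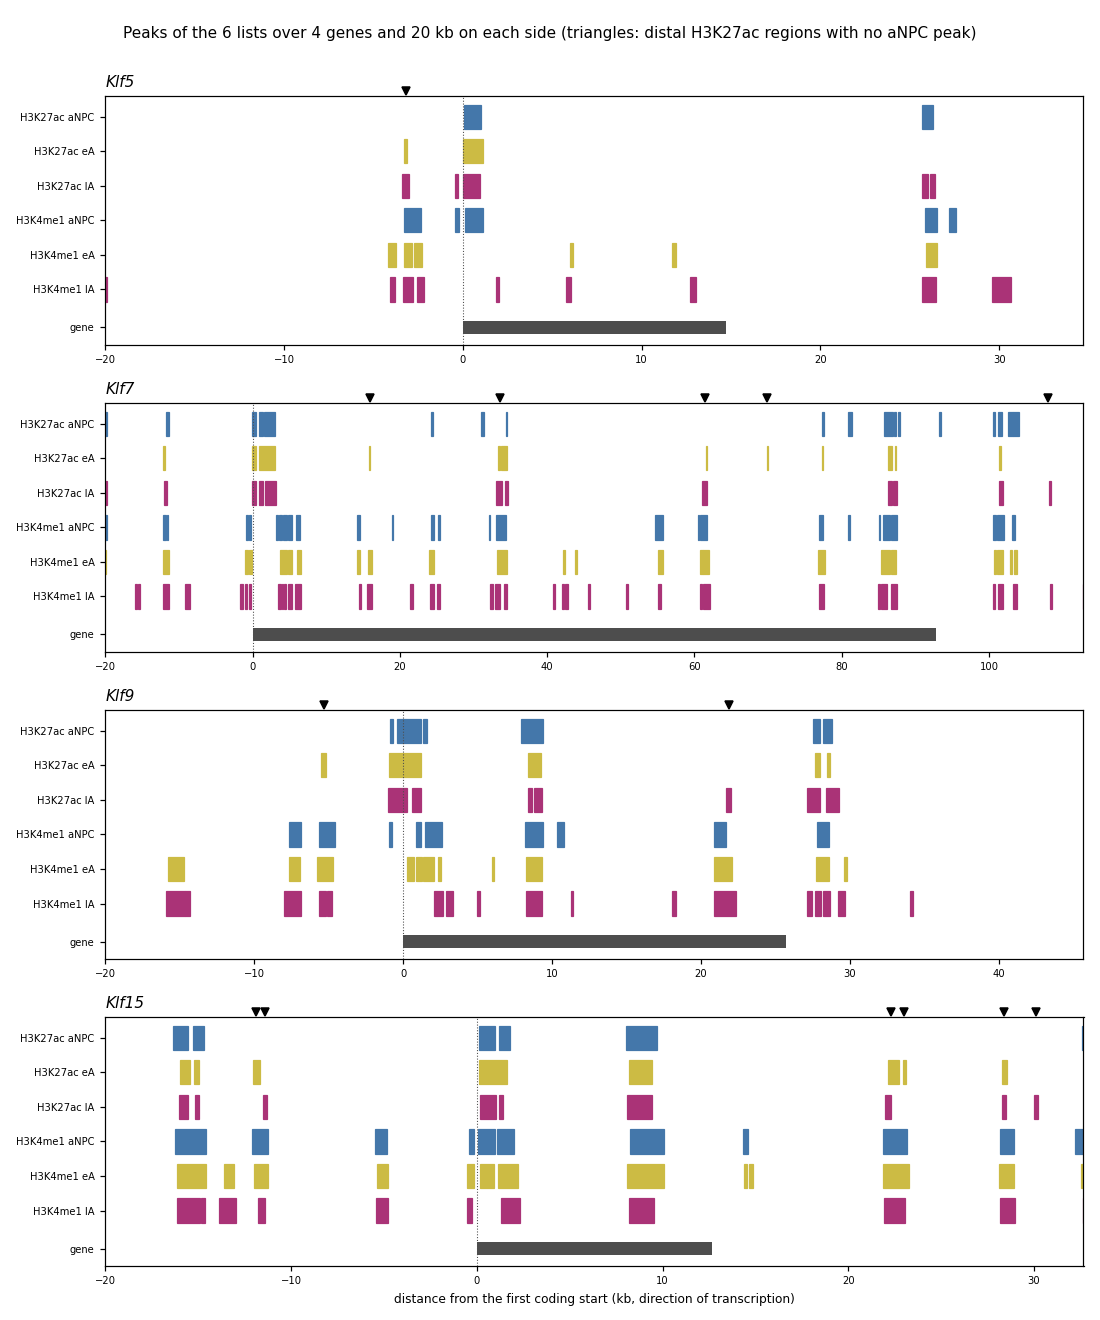
Peaks of the 6 lists (rows) over Klf5, Klf7, Klf9 and Klf15 with 20 kb on each side, by distance from the first coding start in the direction of transcription, with the gene body as a dark bar. Triangles mark distal H3K27ac regions without an aNPC peak, of which 9 of 14 had H3K4me1 in aNPC, and 14 of 24 over all 10 members, against 49.2% of such regions in the whole lists.

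Klf10 and Klf11, both known as TGF-beta-inducible genes, held their promoter peaks. Klf10 (ENSMUSG00000037465.8, chr15:38221219-38230464, minus strand) had 5, 5 and 4 H3K27ac peaks covering 3.47, 2.56 and 2.58 kb. A peak centred about 1 kb upstream was at or above 97.3%, 77.3% and 86.4% of the lists in turn. A peak after the start was at or above 88.7%, 94.5% and 66.9%, and was the higher of the pair in eA alone. A further peak 2.09 kb upstream was present in aNPC and lA and absent in eA. Klf11 (ENSMUSG00000020653.5, chr12:25336236-25347639, plus strand) had 6, 6 and 4 H3K27ac peaks covering 3.57, 2.36 and 2.03 kb. The aNPC length was 1.51 times that of eA, and 1.14 times with 10 kb on each side and 1.37 times with a −log10 q of at least 5. Its promoter pair and an upstream pair at -8.36 and -9.35 kb had H3K27ac at every stage, and the upstream pair and the promoter peak before the start overlapped H3K4me1 at every stage. The H3K27ac peak after the start overlapped H3K4me1 of aNPC alone, and the H3K4me1 peaks of eA and lA began 677 and 783 bp after the start, beyond its end. A region 29.4 kb downstream, with H3K27ac in aNPC and eA, lies at the promoter of the neighbouring gene Cys1.

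Klf13 (ENSMUSG00000052040.7, chr7:71031237-71083801, minus strand) was the member with the most sites shared by all stages and the only one covered at least 1.5 times more by H3K27ac in eA than in aNPC, which 24.2% of the coding genes covered in aNPC or eA were. It had 15, 18 and 14 H3K27ac peaks covering 7.42, 11.4 and 8.64 kb, with eA at 1.53 times aNPC, and at 1.47 times with 50 kb on each side. Of its 20 merged H3K27ac regions, 11 were present at every stage and 13 had H3K4me1 at every stage. An upstream group 17.9 to 19.8 kb from the start kept both marks, and its highest H3K27ac peak was at or above 84.7%, 97.1% and 97.7% of the aNPC, eA and lA lists. An intronic region at 27 kb was of low rank for H3K27ac in aNPC. Its highest peak was at or above 23.1%, 80.4% and 69.1% of the successive lists, and the H3K27ac peak was 211 bp wide in aNPC and 1782 bp in lA. H3K4me1 was already at or above 95.3% of its aNPC list there.

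Klf15 (ENSMUSG00000030087.5, chr6:90412570-90425232, plus strand), a regulator of glucose, lipid and amino acid metabolism, had 6, 8 and 9 H3K27ac peaks covering 4.67, 5.01 and 4.17 kb. Beside Klf12, which had none at any stage, it was the member without an H3K27ac promoter call in lA. The H3K27ac domain nevertheless lay just after the start at every stage. Its first edge lay 97, 99 and 177 bp after the start in turn, so that the call turned on the limit of 100 bp, and with the promoter widened to 1 kb on either side 9 members had a peak in lA. An intronic site 8.85 kb after the start had both marks throughout, and its H3K27ac peak was at or above 88.3%, 75.4% and 64.9% of the lists. RefSeq gives the gene a length of 30.8 kb, against 12.7 kb in GENCODE M1.

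No H3K27ac region of Klf15 was found in aNPC alone, whereas 6 of its 10 distal regions had H3K27ac without an aNPC peak. Of these, 5 had H3K4me1 at every stage. Regions centred 22.3 and 28.4 kb after the start had H3K27ac in both eA and lA. The second lies inside Aldh1l1, an astrocyte marker gene that reaches into the window and had no promoter peak of either mark at any stage. To which of the genes these sites belong cannot be told apart from peak positions. The windows around both eA summits are printed, at chr6:90434780-90434979 and chr6:90440953-90441152 on the plus strand of mm9. A CACCC-like match was found in the second and no match in the first.
Klf15 22.3 kb: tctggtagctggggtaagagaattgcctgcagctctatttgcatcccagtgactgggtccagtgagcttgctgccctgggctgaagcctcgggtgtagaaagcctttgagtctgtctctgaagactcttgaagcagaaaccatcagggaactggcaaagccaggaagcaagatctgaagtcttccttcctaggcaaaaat
Klf15 28.5 kb: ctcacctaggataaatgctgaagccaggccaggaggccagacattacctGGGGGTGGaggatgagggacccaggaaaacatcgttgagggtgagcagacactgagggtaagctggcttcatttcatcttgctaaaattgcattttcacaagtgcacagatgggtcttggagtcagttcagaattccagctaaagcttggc

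Unique peaks are those without an overlapping peak for that mark at either of the other stages. For H3K27ac, 30 of 89 aNPC peaks were unique (33.7%, Wilson 95% interval 24.7 to 44.0%), 9 of 70 eA peaks (12.9%, 6.91 to 22.7%) and 11 of 74 lA peaks (14.9%, 8.51 to 24.7%). The intervals cover counting error only, and peaks of 1 gene are not independent. In the whole lists, 36.0%, 17.7% and 27.7% of peaks were unique. Klf12 supplied 15 of the 30 in aNPC, and without it 15 of 69 were unique (21.7%). Klf12 was singled out after its values were seen, so the lower share is no comparison with the list. For H3K4me1, 20 of 131, 18 of 148 and 63 of 188 peaks were unique in aNPC, eA and lA, against 12.7%, 11.0% and 28.1% of the lists. Of the 63 in lA, Klf12 supplied 22 and Klf7 12. With H3K4me1 lists of equal length, 26, 12 and 30 were unique in aNPC, eA and lA, and Klf12 supplied 10 of the 30.

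**Figure D5:**
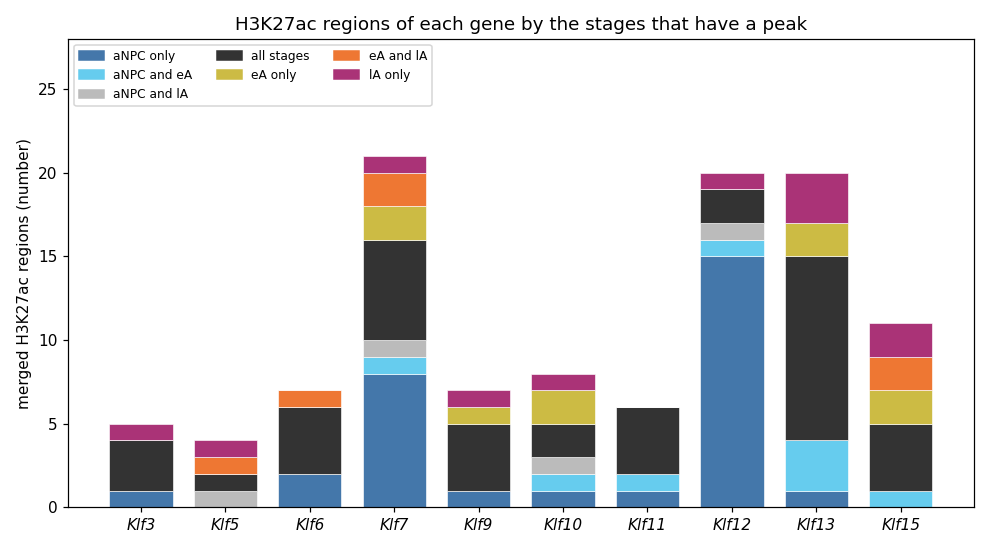
Number of merged H3K27ac regions of each gene, coloured by the stages at which the region held a peak. Klf12 (15 of 20) and Klf7 (8 of 21) hold most of the regions seen in aNPC alone, and Klf13 holds the most regions seen at all stages (11 of 20).

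When overlapping H3K27ac peaks of the stages were merged, the 10 windows held 109 regions. Of these, 41 had a peak at every stage, against 26.0% of the regions merged from the whole lists. A single stage held 30 (aNPC), 9 (eA) and 11 (lA) regions, against 21.5%, 11.1% and 19.3%. A pair of stages held 8 (aNPC and eA), 6 (eA and lA) and 4 (aNPC and lA), against 4.87%, 13.9% and 3.30%. H3K4me1 was present at all stages in 62 regions, against 57.7%, and at none in 19, against 12.6%. The 6 regions with H3K27ac in eA and lA but not in aNPC, at Klf5, Klf6, Klf7 and Klf15, had H3K4me1 in aNPC, as 70.1% of such regions did in the whole lists, and 6 regions are too few to set them apart.

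The question of whether H3K4me1 preceded H3K27ac was put to every distal peak. In eA, 18 distal H3K27ac peaks of the members overlapped no aNPC H3K27ac peak, and 14 of them had H3K4me1 in aNPC, against 63.1% in the whole list. In lA, 15 were new relative to eA, and 11 had H3K4me1 in eA, against 65.6%. With counts of this size, neither share is set apart from its list. The 18 included 6 at Klf7, 4 at Klf15 and 3 at Klf13, and none at Klf3, Klf11 or Klf12. Of 69 distal aNPC peaks, 37 had no eA peak, against 50.9% of the list, and 23 of the 37 had H3K4me1 in eA, against 67.6%. Klf12 accounted for 16 of the 37. Of 51 distal eA peaks, 15 had no lA peak, against 31.2%, and 13 of these had H3K4me1 in lA, against 72.9%.

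Read gene by gene, a covered length of at least 1.5 times that of the neighbouring stage was set against the coding genes whose window was covered by the mark at one or both of the stages, 17438 to 19139 of the 22359, a gene covered at the later stage alone counting as higher and one covered at the earlier stage alone as lower. From aNPC to eA, H3K27ac was higher by that factor at Klf13 alone, against 24.2% of these genes, and lower at Klf7, Klf11 and Klf12, 3 of 10 against 14.7%. From eA to lA it was higher at Klf5, 1 of 10 against 12.8%, and lower at none, against 15.1%. H3K4me1 was higher at none from aNPC to eA, against 15.2%, and lower at none, against 2.25%. From eA to lA it was higher at Klf5, against 9.95%, and lower at none, against 6.52%. In total, the members' H3K27ac cover was 53.7, 44.2 and 44.5 kb, and 44.1, 42.0 and 42.5 kb without Klf12.

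The rest of the Klf and Sp family, 16 genes, split into those with and without H3K27ac at the promoter. Klf2, Klf4, Klf16, Sp1, Sp2, Sp3 and Sp4 had a promoter peak at every stage, and the other 9 genes had none at any stage. Among those 9, Klf8, Klf14, Sp6 and Sp8 had H3K4me1 at the promoter at every stage, and Sp7, an osteoblast factor, had it in eA alone. Sp4 had the pattern of Klf5 and Klf9, with H3K4me1 at the promoter in aNPC and not later. No gene of the rest of the family gained or lost its H3K27ac promoter peak.

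Motif matches were counted in the 200 bases around each H3K27ac summit as a description of the members' sites. The CACCC-like motif was found in 20.3%, 23.5% and 25.4% of the members' distal windows in aNPC, eA and lA, and in 16.8%, 17.0% and 17.2% of those of the whole lists. The RUNX motif was found in 23.2%, 21.6% and 16.9%, against 14.9%, 14.3% and 14.7%. The glucocorticoid receptor motif was in 4 of 69, 5 of 51 and 2 of 59 distal windows, against 6.79%, 6.56% and 6.56%, and the NF1 half-site in 9, 6 and 6, against 12.2%, 12.6% and 11.7%. Promoter windows here were those of peaks at any coding promoter, so in aNPC and eA they include the Cys1 promoter peak in the Klf11 window. In these promoter windows the glucocorticoid receptor motif was in 2 of 20, 2 of 19 and 3 of 15, against 2.84%, 2.88% and 3.02%. AP-1 matches were found in 7 of 69, 2 of 51 and 3 of 59 distal windows, against 6.52%, 6.43% and 6.15% in the lists, and the CRE in none. The GC box, which can share bases with the CACCC-like motif, was in 3 of 20, 10 of 19 and 5 of 15 promoter windows, against 32.7%, 31.0% and 26.3% of all promoter windows. Median GC content of the members' distal windows lay between 48.5% and 50.5%, and between 47.5% and 48.0% in the lists. Windows of 1 gene often overlap between stages, so the counts of different stages are not independent. Summits also moved within promoter domains that persisted, which puts a different stretch in the window. From aNPC to eA, a summit moved from 2.49 to 0.663 kb after the first start at Klf3 and from 1.82 to 0.339 kb at Klf6.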

How the data were processed

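H3K27ac and H3K4me1 ChIP-seq of aNPC, eA and lA was used, 12 of the 51 samples of the series. The authors placed reads at single positions of mm9 with Bowtie, joined 2 biological replicates with SAMtools 0.1.19 and called peaks with MACS2 at default parameters without input. Without input, the caller's background comes from the same reads, and regions of high mappability or copy number can be called. The deposited lists give positions, summits and the −log10 q-values of the authors, used here only to rank or filter peaks within 1 list, because depth is unknown. The other samples were not used, 8 of them because their labels conflict.

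Mitochondrial peaks were left out. GENCODE M1 gave coding genes and 45961 coding starts. Windows added 20 kb on each side. A promoter was the 1 kb before and 100 bp after any coding start, and every other peak was distal, a peak at another gene's promoter being set apart. Overlap meant at least 1 bp. The 10 members, the promoter states of the rest of the family, and peaks that were stage-unique or highest in −log10 q were named. The members, gene lists and motifs were chosen with earlier results of these data known. RefSeq (GRCm38.p6) listed promoters of 8 members, and all 8 matched mm9 once. Scripts (Python 3.11.15, NumPy 2.4.6, SciPy 1.17.1, matplotlib 3.10.9) were tested on simulated peaks. No test between stages could be made. Alternatives were a −log10 q of at least 5, lists of equal length, windows of 10 and 50 kb, a promoter of 1 kb on either side and summits in place of overlap.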

Additional observations from a re-analysis of the deposited data

How the results depend on the processing

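No paired analysis was possible because the replicates of each mark and stage had been merged before peaks were called. Of 110 comparisons of a value over the members with an alternative, 94 stayed within 1.5 times. That limit is wide for ratios near 1. The members' H3K27ac cover of eA over aNPC went from 0.823 to 0.953 without Klf12 and stayed within it. So did the same ratio for H3K4me1, which went from 1.08 to 0.987 with lists of equal length. The 94 included all 8 with a wider promoter, all 5 with summits in place of overlap and 23 of 24 with lists of equal length. The last left 131, 121 and 128 H3K4me1 peaks, without the increase seen in the full lists, and 30 unique H3K4me1 peaks of lA in place of 63. At Klf12 it left 27 H3K4me1 peaks of lA in place of 46, and 10 unique ones in place of 22. With 50 kb on each side, eA held 107 H3K27ac peaks, and 46, 15 and 18 H3K27ac peaks were unique to aNPC, eA and lA, while 23 new eA sites had H3K4me1 before. With 10 kb, 9 new eA sites and 7 new lA sites had H3K4me1 before, and 7 H3K27ac peaks of lA were unique. A −log10 q of at least 5 left 4 unique H3K27ac peaks of lA, 5 new lA sites with H3K4me1 before, and 13, 11 and 39 unique H3K4me1 peaks of aNPC, eA and lA, of which Klf12 held 11 in lA. Leaving out Klf12, an alternative chosen after seeing the data, left 15 unique H3K27ac peaks of aNPC and 41 unique H3K4me1 peaks of lA. The alternatives for unique H3K4me1 peaks were likewise chosen after seeing the data. Extending the Klf12 window to 140 kb upstream, also chosen after seeing the data, gave 96, 76 and 79 H3K27ac peaks for the members. The covered lengths of Klf7, Klf11, Klf13 and Klf5 came below a ratio of 1.5 under at least 1 alternative, and that of Klf12 between aNPC and eA stayed between 2.63 and 4.33. The depth behind the lists is unknown and was not varied.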
